A study of Mus musculus with 22 samples.

Results

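The mouse striatum was compared between 4 libraries taken 24 h after thyroid hormone (TH) and 2 libraries of hypothyroid animals given propylthiouracil (PTU), a drug that blocks the synthesis of thyroid hormone. These 6 libraries were chosen by their labels from the 22 of the series, which also holds 4 striatum libraries at 12 h and 12 libraries of white fat. All animals of the 6 libraries were labelled as wild-type C57BL/6J males of 8 weeks, and the study describes a single injection of T3 and T4 for the TH groups. The PTU labels (replicates 3 and 6) name 2 weeks of treatment. The TH labels do not mention PTU, and the study's overview lists no hypothyroidism procedure for striatum, although the series text speaks of hypothyroid mice. Nothing states that the libraries came from separate animals, so p-values measure the spread between these libraries. Genes with a mean normalised count above 10 over the 10 striatum libraries were tested, which left 15827 genes.

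T4 is the main circulating form of thyroid hormone, and T3 is the form that binds the nuclear receptors encoded by Thra and Thrb. These receptors sit on chromatin next to their target genes with RXR partners, holding corepressors without hormone and coactivators with it. In the brain, astrocytes convert T4 to T3 through the deiodinase encoded by Dio2, neurons inactivate both through that encoded by Dio3, and the GABAergic projection neurons that make up most of the striatum are known to respond.

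The libraries held between 8.06 and 9.81 M counts at 24 h, 8.84 and 9.35 M in the PTU group and 9.42 to 10.2 M at 12 h. Of the markers of the labelled tissue, 12 genes shared by striatal projection neurons (Ppp1r1b, Rgs9 and others), summed to 59451 and 82883 normalised counts in PTU replicates 3 and 6, and to 88904, 15705, 95082 and 50972 in 24 h replicates 1 to 4. The 12 markers of cortical excitatory neurons summed to 17086 and 9249 in the PTU libraries and to 13622, 45779, 11228 and 23585 at 24 h. The 24 h replicate 2 therefore stood apart. It was the highest of the 10 libraries for 11 of 12 cortical markers and the lowest for all 12 projection neuron markers, and Drd2, the dopamine receptor of indirect pathway neurons, was at 31.4 there against 941 to 2151 in the other 24 h libraries. The 24 h replicate 4 also held more cortical and fewer projection neuron counts than both PTU libraries. In whole tissue, fewer cells of a type and less RNA per cell cannot be told apart.

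The sex labels did not match the counts. Xist, which is transcribed from the inactive X chromosome of female cells, was at 22070 to 33693 in PTU replicate 6, in 12 h replicate 1 and in all 4 libraries at 24 h, and at most at 17.8 in the other 4. In those other 4 libraries, PTU replicate 3 among them, 4 Y-linked genes summed to 856 to 1056, against at most 6.84 in the libraries with high Xist. Of the 2 PTU libraries, the 24 h group thus shared this feature with replicate 6 and not with replicate 3. Counts are given below with and without 24 h replicate 2, and where a single library decided them.

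**Figure D1:**
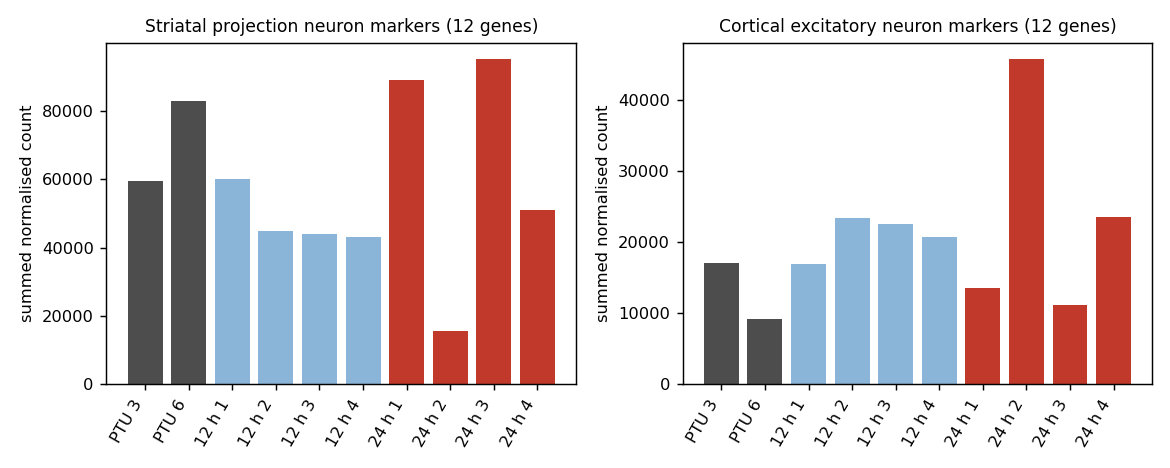
Summed normalised counts (bars from 0) of 12 markers of striatal projection neurons and of 12 markers of cortical excitatory neurons in each of the 10 striatum libraries (grey, PTU; blue, 12 h after TH; red, 24 h after TH). In 24 h replicate 2 the projection neuron sum was 15705 and the cortical sum 45779.

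At 24 h, 50 genes were higher and 5 were lower than in the PTU libraries (edgeR quasi-likelihood F test, Benjamini-Hochberg adjusted p under 0.05). These 55 were 0.348% of the genes tested, the rises 0.316% and the falls 0.0316%. The 50 rises ran from 0.60 to 2.99 on the log2 scale with a median of 1.01, the 5 falls from -0.56 to -0.90, and the median of all genes was 0.016. In all 55 the 24 h and PTU libraries did not overlap. Among all genes the groups were apart for 18.2%, with 24 h above for 9.70% and below for 8.47%, and for 25.3% without 24 h replicate 2. Without 24 h replicate 2, 115 genes were called (0.725%), 101 higher (0.637%) and 14 lower (0.0883%), and 54 of the 55 were among them. The exception was 2010111I01Rik, with an adjusted p of 0.0507. Of the 55 genes, 20 share exon sequence with another annotated gene, 5 on the same strand and 17 on the other, and their counts are uncertain to that extent.

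The calls depended on single libraries other than 24 h replicate 2 as well. Without PTU replicate 3, no gene was called by edgeR (896 at an unadjusted p under 0.05), and without PTU replicate 6 only Hr was called. Without 24 h replicate 4, 9 genes were called, and without 24 h replicate 1, 18. The 12 h libraries entered through the shared estimate of the spread, the scaling and the filter on the mean count. Without 12 h replicate 2 or 3, 15 genes were called. In a fit of PTU and 24 h alone, none was called with all 4 libraries at 24 h (1102 at an unadjusted p under 0.05) and 59 were without 24 h replicate 2. DESeq2, the test the study used, called 203 genes on all libraries, all 55 included. Called means called by edgeR here unless another test is named. Some genes given as not called were called by DESeq2. With the Y-linked counts as a covariate, 7 were called, namely Hr, Gls2, Hs6st1, Mycn, Klf9, Flywch2 and Sema7a, and 72 when 24 h replicate 2 was also left out. Among the 6 libraries with high Xist, where PTU replicate 6 stands alone for its group, no gene was called (512 at an unadjusted p under 0.05), and 4 were without 24 h replicate 2. With the cortical marker counts as a covariate, added after the data had been seen, 269 were called, all 55 included. These also held the Y-linked Ddx3y, Eif2s3y, Kdm5d and Uty, with fitted changes of -15.8 to -18.9 on the log2 scale. None of these Y-linked genes was called without the covariate, so the larger count is no support for the 55.

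**Figure D2:**
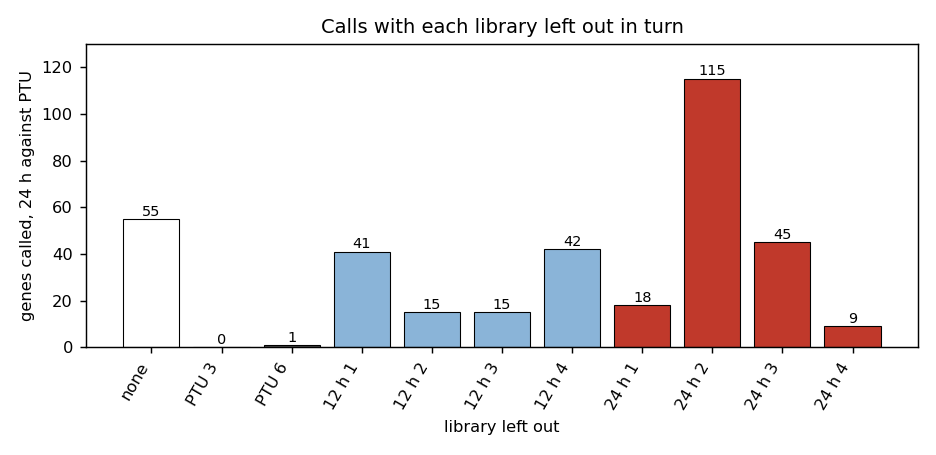
Number of genes called between 24 h and PTU (vertical axis, from 0) with all libraries (white bar) and with each of the 10 libraries left out in turn (grey, PTU; blue, 12 h; red, 24 h). The count was 55 with all libraries, 0 and 1 without a PTU library, and 115 without 24 h replicate 2.

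Several genes known to respond to thyroid hormone in the brain rose. Of 20 tested members of a list of such genes, 8 rose, none fell and 12 were not called. Among all genes tested, 0.316% were called higher. The median change of the list was 1.01 on the log2 scale (1.07 without 24 h replicate 2) beside 0.016 for all genes. The list was chosen with earlier results of these data known, so these values are no independent evidence of a response. The same holds for the other lists below. Their counts of called members stand beside 0.316% of all genes called higher and 0.0316% called lower. Without 24 h replicate 2 these shares were 0.637% and 0.0883%. Hr, the hairless corepressor and a classical target, lies on the plus strand at chr14:70552212-70573548 (GRCm38, GENCODE M21) and was at 38.8 and 57.4 normalised counts in the PTU libraries and at 255, 381, 279 and 327 at 24 h. Every 24 h library was at more than 4 times the level of the higher PTU library. The rise of Hr was 2.68 ± 0.21 on the log2 scale (SE, 24 h n = 4, PTU n = 2, adjusted p = 0.00125), and 2.55 ± 0.19 without 24 h replicate 2 (adjusted p = 8.31e-05). Without PTU replicate 3 its adjusted p was 0.066, the only loss when 1 of the 6 libraries was left out.

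Klf9, a Krüppel-like transcription factor (chr19:23141226-23168134), was at 1932 and 2012 in the PTU libraries and at 3984, 3695, 3526 and 3304 at 24 h. Its 24 h libraries were all close together, and the change was 0.88 ± 0.10 (adjusted p = 0.00982). Of 14 Krüppel-like factors tested, Klf9 was the only one called, and the median of the family was 0.12. Klf7 (0.41 ± 0.14, adjusted p = 0.366), Klf10 (0.30 ± 0.10, adjusted p = 0.338) and Klf12 (adjusted p = 0.631) also had all 24 h libraries above both PTU libraries. The same held for 9.70% of all genes tested.

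Flywch2 was at 57.6 and 56.4 in the PTU libraries and at 216, 129, 204 and 195 at 24 h, a change of 1.70 ± 0.20 (adjusted p = 0.0109). Sema7a, a semaphorin anchored in the membrane that acts in axon growth, was at 326 and 290 and then at 810, 1308, 848 and 810. For Flywch2 the 24 h replicate 2 was the lowest of its group, and for Sema7a the highest. The change of Sema7a was 1.62 ± 0.20 with it (adjusted p = 0.0134) and 1.40 ± 0.10 without it (adjusted p = 8.31e-05).

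Cyp11a1, the side-chain cleavage enzyme that begins steroid synthesis from cholesterol, was at 4.19 and 4.95 in the PTU libraries and at 38.1, 24.7, 63.1 and 24.1 at 24 h. The lowest 24 h library was at about 5 times the PTU level, and the change was 2.99 ± 0.50 (adjusted p = 0.0384). The neighbouring Gm17322, whose exons overlap those of Cyp11a1 on the same strand, rose by 2.26 ± 0.33 (adjusted p = 0.025), and the counts of the pair cannot be separated fully. Of 12 genes of steroid synthesis tested, Cyp11a1 was the only one called. Cyp46a1, the cholesterol 24-hydroxylase of neurons, was called without 24 h replicate 2 (0.76 ± 0.11, adjusted p = 0.012, against 0.0552 with all libraries).

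Aldh1a1, which makes retinoic acid, was at 18.9 and 16.8 in the PTU libraries and at 64.5, 152, 54.8 and 111 at 24 h. The highest values were those of replicates 2 and 4, the libraries with the most cortical marker counts. Its change was 2.42 ± 0.42 with all libraries (adjusted p = 0.0463) and 2.09 ± 0.33 without replicate 2 (adjusted p = 0.0157). With the cortical marker counts as a covariate, the change was 1.89 (adjusted p = 0.00109). That covariate was added after the data had been seen, and its fit also called Y-linked genes, so the value is no support for the rise. The part of cortical tissue in the rise was not tested.

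Kcnj10, the inward rectifier potassium channel of astrocytes and oligodendrocytes, was at 761 and 1147 and then at 2174, 2269, 2485 and 2433, a change of 1.29 ± 0.21 (adjusted p = 0.0346). Abcd2, a peroxisomal carrier of very long fatty acids, was at 278 and 357 and then at 711, 606, 705 and 603, a change of 1.05 ± 0.16 (adjusted p = 0.026). In both, 24 h replicate 2 lay within the range of the other 24 h libraries. Nrgn, the calmodulin-binding neurogranin of neuronal dendrites, was at 3417 and 2787 in the PTU libraries and at 5484, 12236, 6330 and 7942 at 24 h. All 4 were above PTU, with replicate 2 far above the rest. By edgeR, Nrgn was called only without replicate 2 (1.07 ± 0.18, adjusted p = 0.0199, against 0.0966). The next highest value was that of replicate 4, which also held the next most cortical marker counts at 24 h.

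Among the members of the list that were not called, Shh, Itga7 and Nefm had all 24 h libraries above both PTU libraries. The same held for 9.70% of all genes tested. For Reln, Camk4, Homer1, Dbp, Rasd2 and Nefh, also not called, the groups overlapped. Aldh1a3 and Ntf3 stood at 33.5 and 52.4 in PTU replicate 3 and at 2.97 each in PTU replicate 6, so their levels differed between the 2 PTU libraries by more than PTU replicate 6 differed from any 24 h library. Cbr2 was below the count limit.

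**Figure D3:**
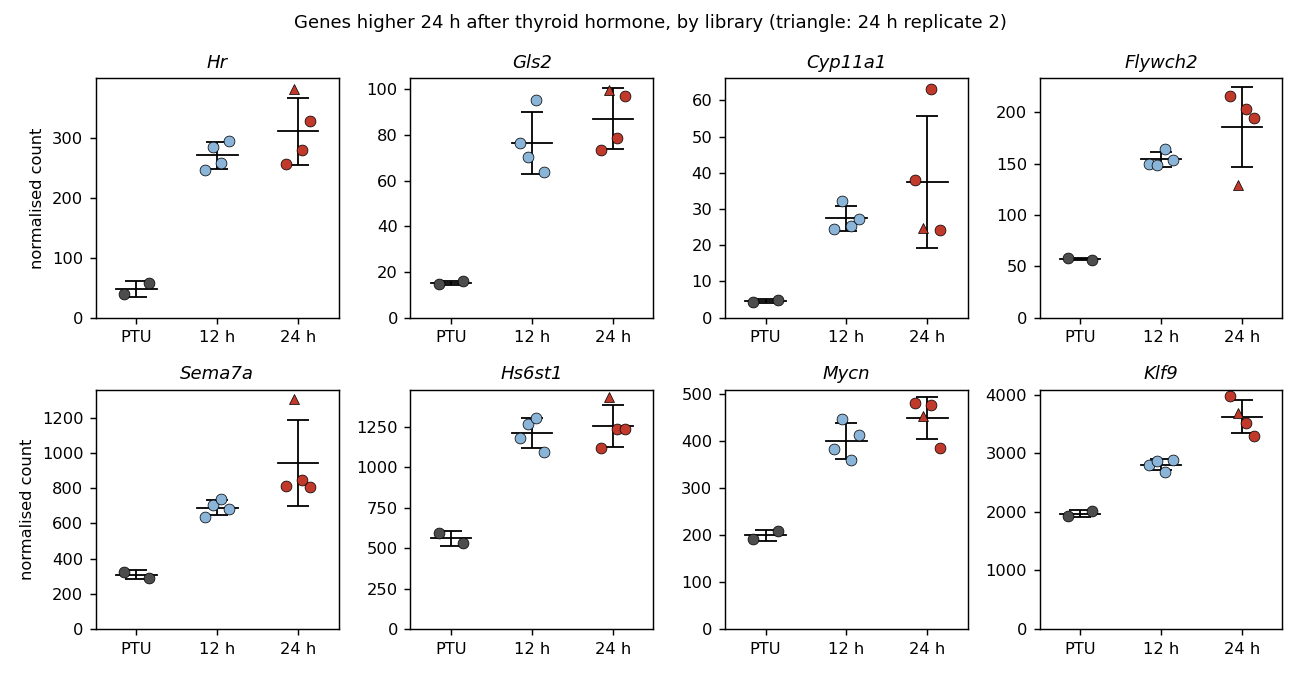
Normalised counts (vertical axes, from 0) of 8 genes called at 24 h, with 1 point per library for PTU (2), 12 h (4) and 24 h (4). Lines and bars are means ± SD, and the triangle is 24 h replicate 2. In each panel all 24 h points lie above both PTU points, as for Hr at 255 to 381 against 38.8 and 57.4.

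Of 7 genes taken from the study's text, Hr, Klf9 and Trp53inp2 rose, with a list median of 0.84. The list also holds Thra and Thrb. The study names Thra among genes repressed by T3 in several cell types and Thrb with the opposite trend. The median therefore mixes genes reported to rise with 1 reported to fall. For Hr and Klf9 the study cites earlier work. From its own data, which include these samples, it names Hr, Desi1, Stat5a and a gene written Trp53ind, read here as Trp53inp2. The direction of those genes is therefore no independent evidence. Trp53inp2, a protein of autophagy, was at 2528 and 2763 and then at 3840, 5757, 4579 and 4766 (0.84 ± 0.15, adjusted p = 0.0474). Stat5a, a transcription factor downstream of cytokine and growth hormone receptors, was at 7.34 and 13.8 in the PTU libraries and at 42, 28, 36.9 and 51.2 at 24 h. The groups of Stat5a did not overlap, but its change of 1.89 ± 0.42 was not called (adjusted p = 0.115, and 0.056 without replicate 2). Desi1 was at 933 and 994 and then at 1124 to 1624 (0.49 ± 0.13, adjusted p = 0.205). These adjusted p-values are from edgeR, whereas the study tested with DESeq2. By DESeq2 with all libraries, Stat5a was called (adjusted p = 0.0102) and Desi1 was not (0.0572).

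Outside the list of known brain targets, the smallest adjusted p-values belonged to Gls2, Hs6st1 and Mycn. Gls2 (chr10:128194457-128210004) encodes a glutaminase, which turns glutamine into glutamate in mitochondria. It was at 14.7 and 15.8 in the PTU libraries and at 73.3, 99.8, 78.6 and 97.3 at 24 h, a change of 2.51 ± 0.25 (adjusted p = 0.00562). Its exons overlap those of Spryd4 on the other strand, and whether counting used strand was not stated. Of 23 genes of glutamine, glutamate and GABA metabolism and transport, Gls2 was the only one called by edgeR, beside a list median of 0.14. The glial glutamate transporter Slc1a2 was at 36428 and 42158 and then at 49046 to 63395 (0.49 ± 0.13, adjusted p = 0.232, and 0.0239 by DESeq2).

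Hs6st1, which adds 6-O-sulfate to heparan sulfate chains, was at 594 and 529 in the PTU libraries and at 1122, 1435, 1239 and 1236 at 24 h. The 24 h libraries were about 2 times as high as the PTU libraries (1.16 ± 0.12, adjusted p = 0.00726). Among 29 genes of heparan sulfate synthesis it was the only one called (list median 0.12). The related Hs6st3 was at 53.4 and 51.4 and then at 107, 127, 149 and 91.3, with a change of 1.17 ± 0.22 that missed the threshold (adjusted p = 0.0562).

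Mycn, a transcription factor of the Myc family, was at 191 and 208 in the PTU libraries and at 482, 453, 476 and 384 at 24 h (1.17 ± 0.13, adjusted p = 0.00809). Igsf9, an adhesion protein of dendrites, was at 47.2 and 56.4 and then at 161, 119, 161 and 121 (1.44 ± 0.19, adjusted p = 0.0155). Replicates 2 and 4 held the lower values of Igsf9, and no 24 h library of either gene overlapped with PTU.

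Further rises included Acot11, an acyl-CoA thioesterase and the only one of 26 fatty acid genes called (59.7 and 57.4, then 114 to 161). Slc7a10, the astrocytic carrier of small neutral amino acids, was at 72.3 and 81.1 and then at 166, 147, 164 and 172 (1.08 ± 0.15, adjusted p = 0.025). It was the only one of 13 astrocyte markers called by edgeR, and the median of these markers was 0.087. Slc25a33, a mitochondrial carrier of pyrimidine nucleotides, doubled from 88 in both PTU libraries to 164 to 196. Atp1b2, the glial beta subunit of the sodium pump, rose from 6090 and 6918 to 10883 to 13645. Col15a1, a basement membrane collagen, rose from 48.2 and 64.3 to 116 to 182. The 50 rises also held Pld3, Cdc42ep4, Spsb1, Adamts2, Daam2, Gpr153, Cdk5r2 and Vmp1, with changes of 0.79 to 1.25.

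In the hedgehog pathway, the ligand Shh relieves the inhibition of Smo by Ptch1 so that Gli factors act. Of its 15 tested genes 1 was called, beside 0.348% of all genes tested. Gli2 was at 36.7 and 54.4 in the PTU libraries and at 107, 113, 123 and 109 at 24 h (1.30 ± 0.21, adjusted p = 0.0346). Gli1, itself a target of the pathway, was at 2.1 and 4.95 and then at 18.6, 6.73, 27.4 and 22.1. Replicate 2 was again apart, and Gli1 was called without it (2.60 ± 0.48, adjusted p = 0.0361, against 0.201). Shh was at 10.5 and 13.8 and then at 34.2, 33.6, 29.8 and 32.1, with no overlap and an adjusted p of 0.247. Ptch1 (0.05 ± 0.19), Smo (-0.03 ± 0.23) and Gli3 (-0.32 ± 0.20) were not called, and the median of the list was -0.02.

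Few genes fell. Col6a2, a chain of collagen VI, was at 509 and 510 in the PTU libraries and at 279, 304, 256 and 255 at 24 h (-0.90 ± 0.16, adjusted p = 0.0436). Tgfb2, a growth factor of the TGF-beta family, was at 554 and 524 and then at 353, 335, 363 and 359 (-0.61 ± 0.11, adjusted p = 0.0436). Both stood below PTU in every 24 h library, replicate 2 included. Of the 28 genes of collagen and TGF-beta signalling, these were the 2 that fell and Col15a1 the 1 that rose, and Col6a1, another chain of collagen VI, was at 1798 and 1905 and then at 734 to 1501 without a call (adjusted p = 0.407).

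The other falls were in signalling and cytoskeletal genes. Spred3, an inhibitor of Ras signalling, was at 1273 and 1232 and then at 796, 853, 847 and 794 (-0.61 ± 0.09, adjusted p = 0.025). Clmn, an actin-binding membrane protein, was at 529 and 524 and then at 307, 368, 324 and 359 (-0.63 ± 0.11, adjusted p = 0.0368). Grk5, a kinase that desensitises receptors coupled to G proteins, was at 319 and 299 and then at 202, 210, 215 and 213 (-0.56 ± 0.10, adjusted p = 0.0474). The 24 h libraries of each gene were close to each other and below PTU.

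For genes that handle the hormone itself, the edgeR calls depended on 24 h replicate 2. Dio2, the activating deiodinase (chr12:90724552-90738438, minus strand), was at 3090 and 3426 in the PTU libraries and at 1886, 3130, 1913 and 2243 at 24 h. Replicate 2 lay within the PTU range, and the other 3 libraries lay below it. Dio2 was not called with all libraries (-0.51 ± 0.18, adjusted p = 0.387) and fell without replicate 2 (-0.71 ± 0.10, adjusted p = 0.0119).

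Dio3, the inactivating deiodinase (chr12:110279068-110281097, plus strand), was at 0 and 1.98 in the PTU libraries and at 60.6, 3.36, 107 and 38.1 at 24 h. Its replicate 2 was close to PTU and its other 3 libraries were far above. The PTU libraries held 2 reads of Dio3 in all and the 24 h libraries 193, a ratio of 50.5 with a 95% interval of 13.8 to 420 (exact binomial, counting error only). The ratio was 65.3 without replicate 2, and Dio3 was then called (adjusted p = 0.00676, against 0.171). Dio3os, the non-coding gene on the other strand next to Dio3, named here after its values were seen, had no reads in PTU and 19.6, 1.12, 31 and 20.1 normalised counts at 24 h. Against a floor of 3 counts over the PTU group it was at least 11.7-fold higher with all libraries. Without replicate 2 it was at least 15.4-fold higher, and edgeR called it only then (adjusted p = 0.0119). With all libraries, DESeq2 called Dio3 (adjusted p = 0.00144) and Dio3os (0.00677) but not Dio2 (0.29). Dio1 had no reads in any library.

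Of the 9 genes of this list tested, no other was called with or without replicate 2. Slco1c1, the T4 carrier of vessels and astrocytes, was at 1510 and 1614 and then at 1409, 1281, 1378 and 1151, below PTU in each library but not called (-0.26 ± 0.11, adjusted p = 0.466). Crym, which binds T3 in the cytosol, was at 1114 and 1322 and then at 895, 177, 970 and 598 (adjusted p = 0.586, and 0.384 without replicate 2). The changes of Slc16a10, Slc7a5, Slc7a8 and Slc3a2 lay between 0.18 and 0.32 and none was called.

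**Figure D4:**
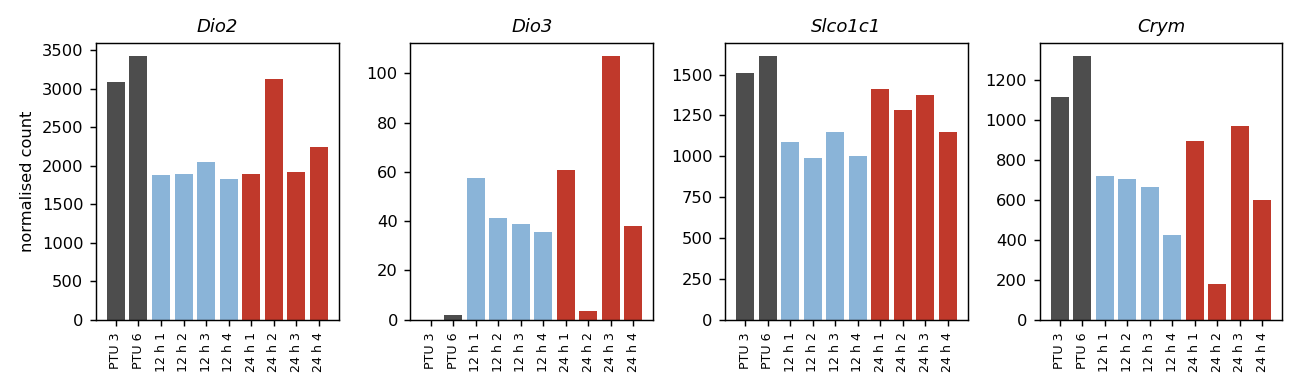
Normalised counts (vertical axes, from 0) of the deiodinases Dio2 and Dio3, the carrier Slco1c1 and the cytosolic binding protein Crym in each of the 10 striatum libraries (grey, PTU; blue, 12 h; red, 24 h). Dio2 in 24 h replicate 2 was at 3130, within the PTU range, and Dio3 in the same library was at 3.36.

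The receptors and their partners did not pass the test. Thra was at 2616 and 2548 in the PTU libraries and at 2496, 3518, 2532 and 3468 at 24 h. Its higher values were in replicates 2 and 4 and the groups overlapped (0.22 ± 0.17, adjusted p = 0.725). Replicates 1 and 3 lay below both PTU libraries, and the fitted change ran from -0.04 to 0.30 over the settings tried. Its exons overlap those of Nr1d1 on the other strand. The study names Thra among genes repressed recurrently across cell types, which is not a statement on striatum alone. Here Thra was not called in either direction. Thrb was at 504 and 406 and then at 587, 643, 643 and 515, above PTU in each library but not called (0.39 ± 0.14, adjusted p = 0.415). Rxrg, the RXR of projection neurons, was at 561 and 920 and then at 961, 24.7, 1076 and 496. Of the 14 genes of receptors and coregulators, none was called with or without replicate 2, and their changes ran from -0.21 to 0.42 with a median of 0.07.

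A further 61 genes were called by edgeR only when 24 h replicate 2 was left out. With all libraries, DESeq2 called 98 of the 115 genes that edgeR called without 24 h replicate 2. The projection neuron markers summed to 15705 in that library against 50972 to 95082 in the other 24 h libraries, and their part in these values was not tested. Cyp2s1, a cytochrome P450, was at 34.6 and 58.4 in the PTU libraries and at 670, 113, 683 and 429 at 24 h. It had the smallest adjusted p among the 61 genes (8.31e-05, change 3.65 ± 0.25, against 0.0585 with all libraries). Ace, the angiotensin-converting enzyme, which is abundant in striatal projection neurons, was at 92.2 and 80.1 and then at 824, 80.7, 927 and 520. In Ace, replicate 2 was at the PTU level and the change without it was 3.11 ± 0.24 (adjusted p = 0.000111, against 0.196).

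Kctd17 (464 and 552, then 1207, 627, 1451 and 1119) and Slc41a1, a magnesium carrier (742 and 764, then 960 to 1587), also had their lowest 24 h value in replicate 2. The same held for Cd72, Acvrl1 and Arg2 among the 10 smallest adjusted p-values of these genes. Robo3 and Brinp1 went the other way. Robo3, a guidance receptor, was at 11.5 and 7.91 in the PTU libraries and at 83.1, 349, 67.9 and 120 at 24 h, highest in replicate 2 (3.20 ± 0.33 without it, adjusted p = 0.00155). Brinp1 was at 1509 and 1785 and then at 2744, 4249, 2765 and 2932.

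The falls among these 61 genes included Dio2 and Scn9a, a voltage-gated sodium channel gene named here after its values were seen. Scn9a was at 387 and 401 in the PTU libraries and at 190, 63.9, 179 and 94.3 at 24 h. All 4 were below PTU, and the change was -1.37 ± 0.22 without replicate 2 (adjusted p = 0.0158, against 0.0729). Opalin, a gene of mature oligodendrocytes, was at 36.7 and 37.6 and then at 74.3, 39.2, 76.2 and 80.3 (1.03 ± 0.20 without replicate 2, adjusted p = 0.043), the only one of 13 oligodendrocyte markers called.

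**Figure D5:**
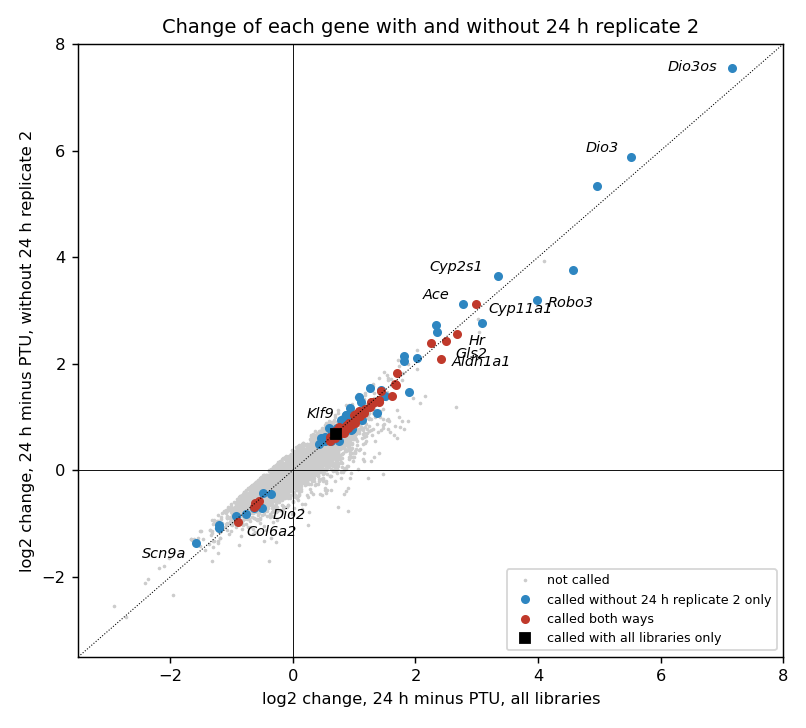
Log2 change between 24 h and PTU of each gene with all libraries (horizontal axis) and without 24 h replicate 2 (vertical axis), over 15771 genes tested both ways, 4 Y-linked genes lying outside the drawn range. Red points are the 54 genes called both ways, blue points those called only without replicate 2, and the dotted line marks equal values. The fitted values of Dio3 and Dio3os rest on 2 and 0 reads in PTU.

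The test between the times set 24 h against 12 h, since both share the PTU libraries in their own comparison, in which 152 genes were called at 12 h (0.960%), 116 of them higher (0.733%) and 36 lower (0.227%). With all libraries no gene was called by edgeR (2309 at an unadjusted p under 0.05), whereas DESeq2 called 240. Without 24 h replicate 2, edgeR called 78 genes (0.492%), 33 higher at 24 h (0.208%) and 45 lower (0.284%). All libraries at 24 h had high Xist, whereas 3 of the 4 at 12 h held Y-linked counts, and with the Y-linked counts as a covariate no gene was called between the times, either with all libraries (1504 at an unadjusted p under 0.05) or without 24 h replicate 2 (2211, smallest adjusted p = 0.0778). Hr was at 245 to 295 at 12 h beside 255 to 381 at 24 h (difference 0.20 ± 0.14, adjusted p = 0.558). Gls2 was at 63.7 to 95.2 at 12 h beside 73.3 to 99.8 (0.19 ± 0.16, adjusted p = 0.63). Klf9 was at 2681 to 2893 at 12 h, below each 24 h library at 3304 to 3984, with a difference of 0.37 ± 0.08 that was not called (adjusted p = 0.136, and 0.0613 without replicate 2).

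Prex2, Apln and 2010111I01Rik, chosen after their values were seen, lay near PTU at 12 h and above it at 24 h. Prex2, a regulator of Rac, was at 366 and 385 in PTU, at 329 to 397 at 12 h and at 586, 537, 574 and 587 at 24 h. Its difference between the times was 0.62 ± 0.08 (adjusted p = 0.057) and 0.64 ± 0.08 without replicate 2 (adjusted p = 0.0236). Apln, which encodes the peptide apelin, was at 363 and 396, at 367 to 520 and then at 732, 738, 583 and 751 (adjusted p = 0.0483 without replicate 2). The gene 2010111I01Rik was at 107 and 123, at 102 to 121 and then at 181 to 192 (adjusted p = 0.0364 without replicate 2).

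The genes of striatal projection neurons held no call by edgeR. Pdyn, the dynorphin precursor of direct pathway neurons, was at 1053 and 1374 in the PTU libraries and at 623, 291, 707 and 405 at 24 h. All 4 lay below PTU, and the change was -1.26 ± 0.32 (adjusted p = 0.172) and -1.09 ± 0.25 without replicate 2 (adjusted p = 0.0999). Tac1, the substance P precursor of the same neurons, was at 3163 and 4416 and then at 2689, 390, 2734 and 1405. Penk, the enkephalin precursor of indirect pathway neurons, was at 9128 and 13643 and then at 8594, 228, 9622 and 4193. With all libraries, DESeq2 called Pdyn (adjusted p = 0.0142) but not Tac1 (0.752) or Penk (0.916).

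Rasd2, a small GTPase of these neurons and a known hormone-responsive gene, was at 1700 and 3291 and then at 6092, 591, 6435 and 3580. It was above PTU in all but replicate 2 (1.08 ± 0.30 without it, adjusted p = 0.194). The median of the 12 shared markers was -0.28 with all libraries and 0.05 without replicate 2, and that of the 12 cortical markers 0.87 and 0.31, beside 0.016 and -0.008 for all genes.

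Other lists also held no call by edgeR with all libraries. The 16 immediate early genes had a median of 0.32 (0.21 without replicate 2), with Jun at 291 and 348 and then at 501, 758, 494 and 560 (adjusted p = 0.108). The 21 genes of cholesterol synthesis and uptake had a median of 0.13, led by Dhcr7 at 472 and 594 and then at 726 to 838 (adjusted p = 0.0944). The 17 clock genes had a median of 0.02, with Nfil3 at 38.8 and 36.6 and then at 63.1 to 87.4 (adjusted p = 0.186). With all libraries, DESeq2 called Jun (adjusted p = 0.00425) and Dhcr7 (0.00464) but not Nfil3 (0.0657). The 75 nuclear genes of oxidative phosphorylation had a median of 0.02 and ran only from -0.27 to 0.28, and the 77 mitochondrial ribosome genes had a median of 0.06. No member of the microglia, endothelium, interneuron, choroid plexus, meningeal, blood, precursor, glucocorticoid response, dopamine signalling or growth hormone and STAT lists was called with or without replicate 2.

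Thyroid hormone receptors with RXR bind direct repeats of the hexamer AGGTCA, so the start regions of the called genes were searched for it. Windows from 250 bases before to 50 after the transcription start were taken from RefSeq (GRCm38.p6), in which 38 of the 50 genes that rose had an entry, Hr and Gls2 not among them. The hexamer lay on either strand in 4 of 51 windows of genes that rose (7.84%) and in none of 6 windows of genes that fell, beside 11.9% of the windows of all genes tested and 16.3% of all windows. For the genes called higher without 24 h replicate 2 it lay in 17 of 115 windows (14.8%), so the share was below that of all genes tested with that library and above it without. The full repeat, 2 such hexamers in the same direction with any 4 bases between them, was in 5 of 32851 windows and in none of those of called genes. A match describes the letters only, and no match says only that they are not in this window. The windows that hold the hexamer are shown with it in capitals, as the stretches in which a called gene and the letters meet, read on the strand of the gene (TGACCT marks it on the other strand).
Cyp11a1 (chr9:58014702-58015001, plus strand): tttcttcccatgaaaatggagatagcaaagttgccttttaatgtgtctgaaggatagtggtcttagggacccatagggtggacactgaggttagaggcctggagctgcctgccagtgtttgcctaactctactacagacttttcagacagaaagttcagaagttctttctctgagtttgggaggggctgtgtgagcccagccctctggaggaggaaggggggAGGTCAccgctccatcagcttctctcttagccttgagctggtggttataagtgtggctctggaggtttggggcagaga
Inka2 (chr3:105705208-105705507, plus strand): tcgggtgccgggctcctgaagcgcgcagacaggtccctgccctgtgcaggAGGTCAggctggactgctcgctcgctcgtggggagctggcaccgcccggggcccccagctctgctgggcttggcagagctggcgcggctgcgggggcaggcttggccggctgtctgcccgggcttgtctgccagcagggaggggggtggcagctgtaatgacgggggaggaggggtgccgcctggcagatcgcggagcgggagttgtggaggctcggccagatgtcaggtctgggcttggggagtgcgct
Spsb1 (chr4:149954957-149955256, minus strand): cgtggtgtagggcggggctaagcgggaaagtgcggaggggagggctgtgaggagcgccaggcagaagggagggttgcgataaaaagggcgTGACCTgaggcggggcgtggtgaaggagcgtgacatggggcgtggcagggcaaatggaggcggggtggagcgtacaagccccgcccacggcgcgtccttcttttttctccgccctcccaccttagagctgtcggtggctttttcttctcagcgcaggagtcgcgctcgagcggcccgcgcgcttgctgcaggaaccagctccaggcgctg
Vmp1 (chr11:86683474-86683773, minus strand): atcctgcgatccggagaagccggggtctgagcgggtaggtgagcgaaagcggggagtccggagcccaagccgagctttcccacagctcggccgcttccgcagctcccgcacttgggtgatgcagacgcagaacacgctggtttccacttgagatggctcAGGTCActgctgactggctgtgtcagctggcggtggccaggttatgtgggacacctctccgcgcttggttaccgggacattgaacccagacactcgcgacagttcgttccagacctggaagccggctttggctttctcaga

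Inka2 and Vmp1 are named here for the hexamer, after their values were seen. The hexamer began 28 bases before the start of Cyp11a1, 200 before that of Inka2, 160 before that of Spsb1 and 91 before that of Vmp1. Spsb1, an adaptor of ubiquitin ligases, was at 85.9 and 86.1 in the PTU libraries and at 156 to 214 at 24 h. Vmp1, a membrane protein of autophagy, was at 417 and 434 and then at 688 to 937. Inka2 was at 442 and 403 and then at 631 to 836. None of the groups of these genes overlapped.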

How the data were processed

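RNA of whole striatum was sequenced on a NextSeq 500 after library preparation with the Lexogen SENSE total RNA kit. Per the study's methods and the submitters' processing notes, the authors aligned reads with Bowtie2 (2.2.6.2) to GRCm38/mm10, removed alignments of low mapping quality and counted reads per gene with htseqcount. Which gene annotation was used, whether strand was counted and how reads over several genes were assigned are not given in the sources used here. The deposited table holds raw counts per gene for the 10 striatum libraries in 55341 rows. Of these, 14 rows carried dates in place of gene symbols and were left out, 0.146 to 0.201% of the counts of a library.

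Here, counts were scaled by TMM and tested with edgeR's quasi-likelihood F test (edgeR 4.0.16, R 4.3.3) in 1 model of the 3 groups, over genes with a mean normalised count above 10, two-sided, with Benjamini-Hochberg adjusted p under 0.05 and no fold threshold. Normalised counts are counts scaled to a common library size. Standard errors are the log2 change divided by the square root of F. DESeq2 (1.42.0), the test the study used, was an alternative here. Further alternatives were other filters, the groups alone, a covariate of the Y-linked counts and each library left out. The members of the comparison and the gene lists were chosen with earlier results of these data known. Named genes were the 20 smallest adjusted p-values called with and without 24 h replicate 2, every fall, the 5 largest rises, list members called either way, all tested members of the study, receptor and deiodinase lists, up to 4 leading members of each other list and the 10 smallest adjusted p-values among genes called only without replicate 2 or lost without it. List members outside this rule, such as Klf12, Col6a1, Ptch1 and the uncalled brain targets, were named after their values were seen. The test was also run on simulated counts that held no outlying library, mixed tissue or difference in sex. That run does not bear on how the calls depend on single libraries. The table of white fat was not used here.

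Depth was 8.06 to 10.2 M counts per library. Replicates of each group differed by more than sampling noise (chi-square per degree of freedom 3.72 to 44.3), so none was counted as a repeat of another, and the 3 pairs with 24 h replicate 2 were the most apart of that group (22.5 to 44.3). The labels do not say that a replicate number marks a shared animal or day, and the main fit did not pair by it. Libraries of the same number had correlations of deviations from the group means from -0.395 to 0.267. Pairs of different numbers were not set beside them, so these values cannot tell whether the numbers mark pairs. Results for some list members are not reported here.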

Additional observations from a re-analysis of the deposited data

Results flagged for a closer look

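Among the 70 genes and lists examined in the 4 libraries at 24 h, 3 had a library whose gap to its nearest neighbour exceeded Dixon's 95% critical value for 4 samples as a share of the group's range. Chance gives about 1 such case in 20. Apln was at 583 in 24 h replicate 3, below the other 3 libraries (share 0.885). Sema7a was at 1308 in 24 h replicate 2, above the other 3 (share 0.924), and its change without that library is given above. The summed blood markers reached 2595 normalised counts in 24 h replicate 3 (share 0.835), and no blood marker was called at 24 h.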

How the results depend on the processing

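With 1 library left out at a time, the genes called at 24 h against PTU numbered 0 to 115 (55 with all), those at 24 h against 12 h 0 to 78 (0 with all), those at 12 h against PTU 0 to 1257 (152 with all) and the members of gene lists called at 24 h against PTU 0 to 23 (17 with all). In the same order of comparisons, DESeq2 called 203, 240, 795 and 30. Without the filter on low counts, 104, 41 and 308 genes were called in the first 3. In a fit of the groups compared alone, 0 were called for 24 h and 1442 for 12 h against PTU, with 0 list members. Without 24 h replicate 2, that fit called 59 at 24 h against PTU, with 14 list members, and 61 at 24 h against 12 h. With the Y-linked covariate, 7 and 56 were called for 24 h and 12 h against PTU, with 6 list members, and 0 for 24 h against 12 h. Without 24 h replicate 2, these were 72, 802, 19 and 0. The other settings were chosen after seeing the data. With the cortical marker covariate, the counts were 269, 587, 599 and 41. Without 24 h replicates 2 and 4, they were 135, 1744 and 1952. Among the 6 libraries with high Xist, they were 0, 4, 0 and 0, and 4, 33, 2 and 2 when 24 h replicate 2 was also left out. There PTU is 1 library, assumed to vary like the other groups. The causes of these shifts were not tested. No paired analysis was possible because PTU and 24 h share a single replicate number. Between 24 h and 12 h, a fit with the replicate block called 7 genes. The scaling by DESeq2 size factors called 52 genes at 24 h against PTU, and a mean above 50 left 54. Genes at a few counts in PTU, such as Dio3, Dio3os and Cd72, were limited by depth.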
